A study of Sus scrofa with 2 samples.

Results

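The 10 genes described here encode enzymes of glutathione and oxidant defence and the transcription factor that controls many of them. They were MGST1, GCLC, GCLM, SOD1, SOD2, SOD3, PRDX3, CAT, TXNRD1 and NFE2L2, taken by symbol from the gene list of the count matrices. All 10 were found among the 31908 genes of both matrices, and none had to be dropped. Because MGST1, GCLC, SOD3 and PRDX3 were already known to differ in cardiomyocyte-like nuclei of these libraries, their values in that class are given as a description.

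Cells keep oxidants in check with enzymes that work in sequence. Superoxide dismutases turn superoxide into hydrogen peroxide, which catalase, peroxiredoxins and glutathione-dependent enzymes then remove, and glutathione and thioredoxin are kept reduced at the expense of NADPH. In the heart much of the superoxide arises in mitochondria, and NFE2L2 (NRF2), once released from KEAP1, switches on the glutathione and thioredoxin genes.

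Nuclei were taken from frozen tissue of the free wall of the left ventricle in Bama pigs, a miniature breed, and their RNA was sequenced with 1 library per genotype. The TG library came from triple-transgenic tissue carrying PNPLA3 I148M (a human risk variant of a lipid droplet lipase), GIPRdn (a dominant-negative receptor for the incretin hormone GIP) and hIAPP (human islet amyloid polypeptide). The WT library came from wild-type tissue, and both groups had eaten a high-fat high-sucrose diet for 12 months. The number of animals behind a library, their age and sex and the promoters of the transgenes were not given in the sources used here. Genotype and library are the same split, so no difference below has a replicate check and no p-values were computed. All intervals are at 95% and cover counting error only.

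The TG library held 15000 barcodes with 89324966 unique molecular identifiers (UMIs, counts of single captured transcripts), and the WT library 18251 barcodes with 127126477. The lowest depth was 1972 UMIs in the TG library and 500 UMIs in the WT library. A minimum of 500 genes left out 1 TG and 943 WT barcodes, so the libraries were cut at different depths. After filtering, 14939 TG nuclei had a median of 3937 UMIs and 16725 WT nuclei a median of 5442. The libraries shared 81 barcodes. Clusters were named from marker genes, and 8 classes with at least 100 nuclei in both libraries were compared. They were cardiomyocyte-like (5443 TG and 6996 WT nuclei), fibroblast-like (1985 and 2872), vascular endothelial-like (2819 and 1507), lymphatic endothelial-like (594 and 955), macrophage-like (605 and 1444), T or NK lymphocyte-like (280 and 525), pericyte-like (149 and 238) and smooth muscle-like (163 and 243). Another 2608 TG and 1405 WT nuclei lay in clusters with markers of unrelated classes and were set aside. Pig PNPLA3, GIPR and IAPP, whose symbols match the transgenes, stood at or below 0.823 CPM (counts scaled to 1000000 nuclear-encoded UMIs) in both libraries. PNPLA3 stood at 0.823 CPM in TG and 0.396 CPM in WT, and IAPP at 0.474 CPM in TG and 0.0888 CPM in WT. GIPR went the other way, at 0.113 CPM in TG and 0.153 CPM in WT. Levels this low do not check the genotype.

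Muscle transcripts were not confined to cardiomyocyte-like nuclei. The 11 cardiomyocyte markers in the files summed to 22.9% to 55.4% of their cardiomyocyte-like level in the other 7 classes of TG, and to 6.35% to 27.9% in WT. Each of the 11 had counts in every class of both libraries. In fibroblast-like nuclei the ventricular myosin light chain gene MYL2 reached 2613 CPM in TG, above its 1473 CPM in TG cardiomyocyte-like nuclei. In WT it reached 778 CPM and 2033 CPM in the same classes. An alternative in which a library-wide profile was taken off each class, at the share that accounts for these markers, is given beside the results it bears on.

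In cardiomyocyte-like nuclei, 4 of the 10 genes were higher in TG and 1 was lower. A gene counted as higher at a TG over WT ratio of at least 1.5, and as lower at the inverse, with an interval that left out 1. Among all 19004 genes measured in that class, meaning those with at least 20 UMIs over both libraries, 25.3% were higher and 8.74% lower (34.1% in either direction). MGST1, GCLC, GCLM and SOD3 were the higher ones and PRDX3 the lower one. All of these but GCLM were already known to differ in this class. The count and the median that follows are therefore a description and cannot be weighed against the values over all genes. The median log2 ratio was 0.20 over the 10 genes and 0.08 over all genes measured.

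In the other classes the picture was led by MGST1, SOD1 and SOD2. Fibroblast-like nuclei had 4 genes higher and 0 lower, where 17.1% of 14861 genes measured were higher and 9.02% lower (26.1% in either direction). Vascular endothelial-like nuclei also had 4 higher and 0 lower, against 12% higher and 7.91% lower over all genes measured (19.9% in either direction). Macrophage-like nuclei had 5 of 9 measured genes higher and 1 lower, GCLC, against 19.5% and 7.97% (27.4% together).

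The smaller classes gave fewer measured genes. Lymphatic endothelial-like nuclei had 2 of 9 higher and 0 lower, beside 11.8% and 8.16% over all genes measured (20% together). T or NK lymphocyte-like nuclei had 3 of 9 higher and 0 lower, beside 14.2% and 9.93% (24.1% together). Pericyte-like nuclei had 2 of 7 higher and 0 lower, beside 10.3% and 8.24% (18.5% together). Smooth muscle-like nuclei had 5 of 8 higher and 1 lower, beside 17.5% and 9.83% (27.3% together). SOD3 was the gene most often below 20 UMIs, in 5 of 8 classes.

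**Figure D1:**
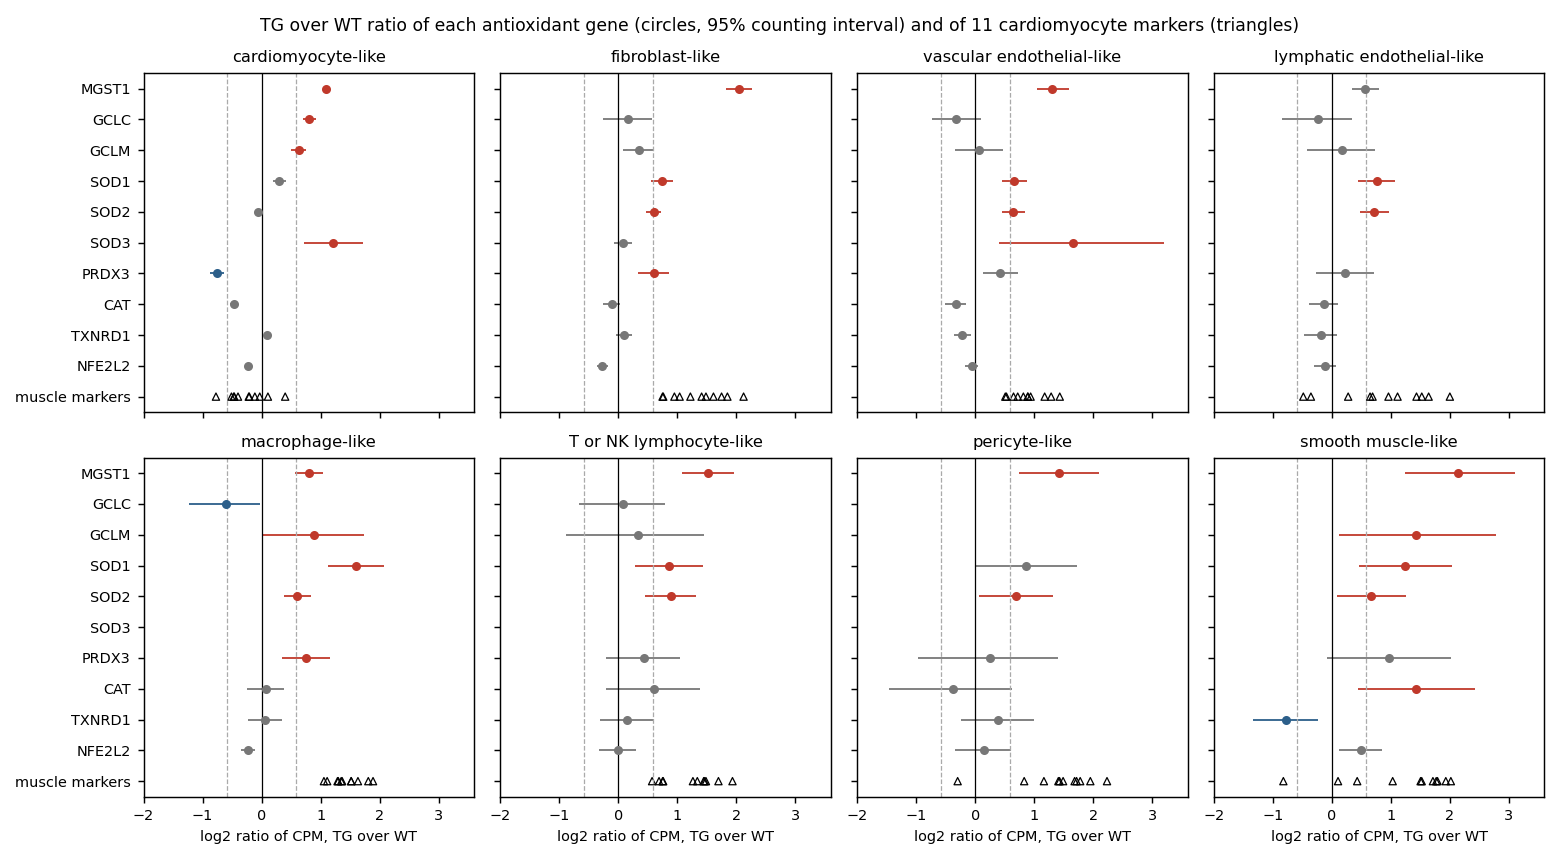
Log2 ratio of CPM, TG over WT, for each antioxidant gene with at least 20 UMIs, in 8 classes (circles with 95% counting intervals; red higher, blue lower, grey neither; dashed lines at 1.5-fold), above the 11 cardiomyocyte markers (triangles). MGST1, SOD1 and SOD2 lie to the right of the line at 0 in each class other than cardiomyocyte-like, and the muscle markers lie to the right there too, apart from 2 in lymphatic endothelial-like, 1 in pericyte-like and 1 in smooth muscle-like nuclei.

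Glutathione is made by glutamate-cysteine ligase, whose catalytic subunit is GCLC (chr7:27209565-27253535) and whose modifier subunit is GCLM (chr4:123371198-123390130). Both were higher in TG cardiomyocyte-like nuclei. GCLC stood at 31.1 CPM in TG and 17.7 CPM in WT, a ratio of 1.75 (1.63 to 1.89). GCLM stood at 20.3 CPM in TG and 13.2 CPM in WT, a ratio of 1.54 (1.41 to 1.69), and this call was lost when TMM factors set the scale (1.44). In macrophage-like nuclei GCLC was lower in TG, at 15.4 CPM in TG (30 UMIs) and 23.4 CPM in WT (140 UMIs), a ratio of 0.66 (0.43 to 0.98) that lost its call under 6 of the 11 alternatives run on levels. GCLM was higher there, at 10.2 CPM in TG and 5.51 CPM in WT, on 20 and 33 UMIs (1.86, interval 1.01 to 3.33), a call lost under 5 of the 11. With nuclei thinned to 1000 UMIs neither subunit had a call there (GCLC 1.05, GCLM 2.05 with an interval of 0.63 to 6.46). GCLM was also higher in smooth muscle-like nuclei, on 13 and 10 UMIs.

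The order of the classes by GCLC level differed between the libraries. T or NK lymphocyte-like nuclei had the highest GCLC level in both libraries, at 32.5 CPM in TG and 30.8 CPM in WT. In TG, cardiomyocyte-like nuclei came next with an interval that overlapped theirs, and stood apart from the lymphatic endothelial-like nuclei that followed at 18.2 CPM. In WT, macrophage-like (23.4 CPM) and lymphatic endothelial-like nuclei (21.5 CPM) came between, and the intervals of neighbouring classes overlapped throughout. GCLM was highest in fibroblast-like nuclei of both libraries, at 32.6 CPM in TG and 25.7 CPM in WT, a ratio of 1.27 (1.05 to 1.52).

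MGST1 (chr5:56259566-56283823) encodes a membrane-bound enzyme that joins glutathione to lipophilic compounds and reduces lipid peroxides. It was higher in TG in 7 of 8 classes, cardiomyocyte-like nuclei included. In cardiomyocyte-like nuclei it stood at 229.5 CPM in TG (10914 UMIs) and 108 CPM in WT (8250 UMIs), a ratio of 2.12 (2.06 to 2.18). That class had the highest MGST1 level of the 8 in both libraries, and its interval stood apart from the next class, lymphatic endothelial-like nuclei, at 135 CPM in TG and 90.9 CPM in WT.

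MGST1 differed more between the libraries in several other classes. Fibroblast-like nuclei had 85.4 CPM in TG and 20.7 CPM in WT, a ratio of 4.13 (3.54 to 4.83). Smooth muscle-like nuclei had 66.2 CPM in TG and 15.0 CPM in WT, a ratio of 4.41 (2.37 to 8.55) that rests on 34 and 16 UMIs. In T or NK lymphocyte-like, pericyte-like, vascular endothelial-like and macrophage-like nuclei the ratios were 2.86, 2.67, 2.47 and 1.74. The class left under the fold was lymphatic endothelial-like, at 1.48 (1.26 to 1.74).

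Muscle transcripts also differed between the libraries in these classes. All 11 cardiomyocyte markers were higher in TG fibroblast-like nuclei, by a median ratio of 2.66, and all 11 in macrophage-like nuclei, by 2.57. The median ratio of the markers was 1.86 in vascular endothelial-like, 1.94 in lymphatic endothelial-like and 0.86 in cardiomyocyte-like nuclei. The part of muscle transcripts in the MGST1 differences was not tested. With the library-wide profile taken off, MGST1 kept its call in fibroblast-like nuclei at 2.25 (1.42 to 3.58) and in T or NK lymphocyte-like nuclei at 2.36 (1.39 to 4.01). It lost the call in macrophage-like (1.30), pericyte-like (1.84, interval 0.65 to 5.19) and vascular endothelial-like nuclei, where the ratio went below 1 (0.81, interval 0.45 to 1.45). In smooth muscle-like nuclei too few UMIs were left for a ratio, and the share taken off there (73.6% in TG and 39.7% in WT) counts CTNNA3, a marker that stood at 8826 CPM in TG and 6560.5 CPM in WT smooth muscle-like nuclei against 7249 and 8383 CPM in cardiomyocyte-like nuclei.

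**Figure D2:**
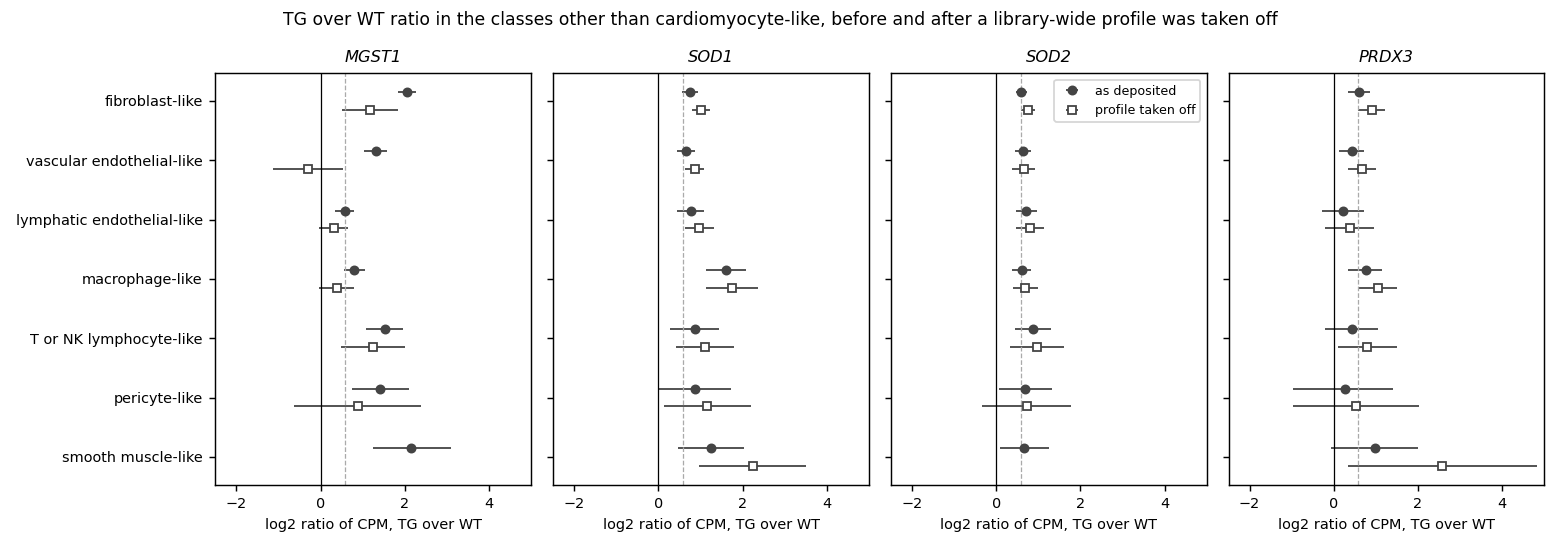
Log2 ratio of CPM, TG over WT, in the 7 classes other than cardiomyocyte-like, from the deposited counts (filled circles) and after a library-wide profile was taken off (open squares), with 95% counting intervals; dashed line at 1.5-fold. The MGST1 squares lie left of their circles, down to a ratio of 0.81 in vascular endothelial-like nuclei, whereas those of SOD1 and PRDX3 lie right of theirs; squares are missing where fewer than 3 UMIs were left in a library.

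The cardiomyocyte-like class was made of different clusters in the 2 libraries. Clusters 1 and 9 held 3851 and 1012 TG nuclei with 71 and 31 WT nuclei, and clusters 0 and 4 held 70 and 442 TG nuclei with 4701 and 2005 WT nuclei. MGST1 was higher in TG within each of these 4 clusters, at ratios of 2.10 in cluster 0, 2.09 in cluster 1, 1.70 in cluster 4 and 1.98 in cluster 9, with lower bounds from 1.38 to 1.71. GCLC had an interval that left out 1 only in cluster 4, at 1.93 (1.47 to 2.50), with few UMIs of one library in the other 3. GCLM had one in cluster 1 alone, on 4 WT UMIs.

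**Figure D3:**
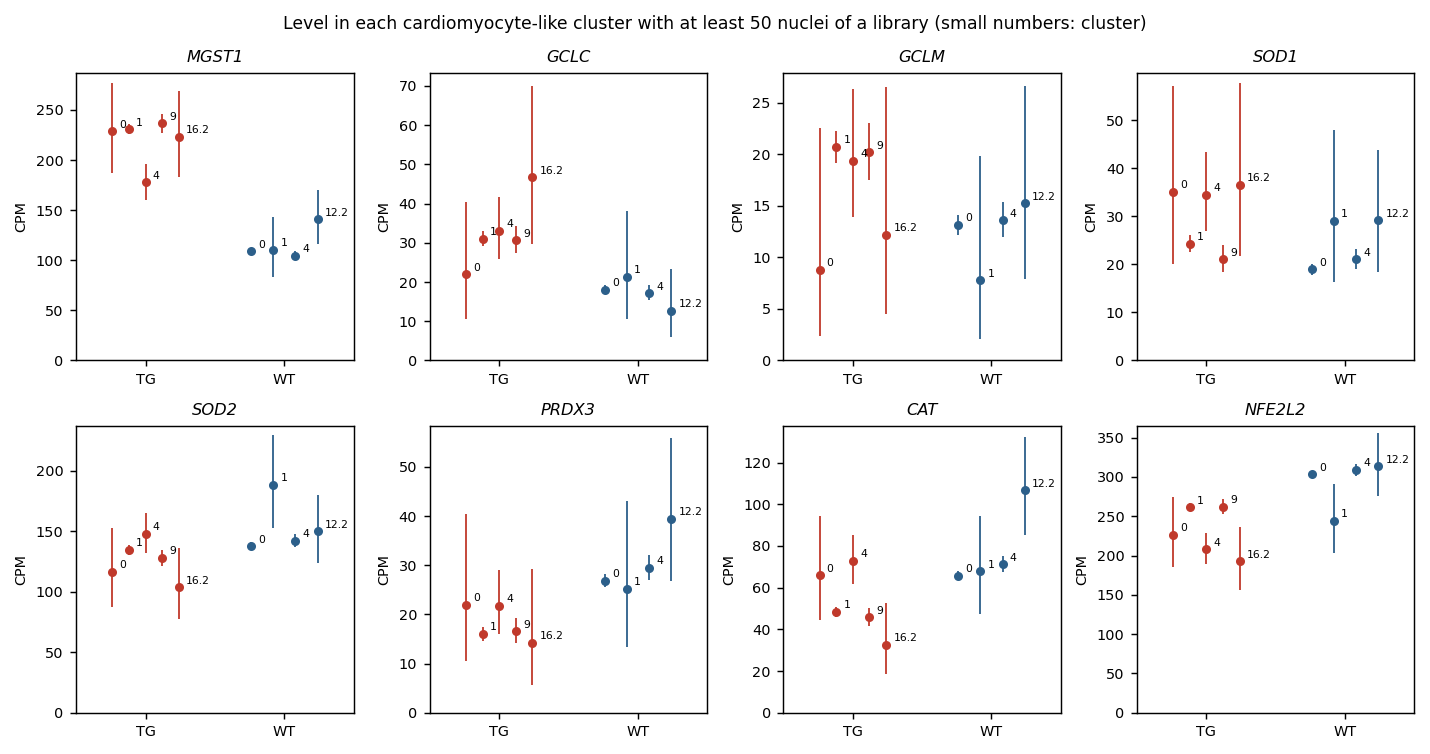
CPM of 8 of the genes in each cardiomyocyte-like cluster with at least 50 nuclei of a library (points with 95% counting intervals; small numbers name the cluster), TG on the left and WT on the right of each panel. For MGST1 the 5 TG clusters lie between 178 and 237 CPM and the 4 WT clusters between 105 and 141 CPM, for GCLC the TG clusters (22.0 to 46.7 CPM) lie above the WT ones (12.7 to 21.3 CPM), and for PRDX3 the TG clusters (14.2 to 22.0 CPM) lie below the WT ones (25.2 to 39.4 CPM), whereas the TG and WT clusters of GCLM, SOD1, SOD2, CAT and NFE2L2 overlap.

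SOD1 (chr13:195326573-195335273) is the copper-zinc superoxide dismutase of the cytosol and SOD2 (chr1:7679352-7689564) the manganese enzyme of mitochondria. SOD2 was higher in TG in all 7 classes other than cardiomyocyte-like, and SOD1 in 6 of them. In cardiomyocyte-like nuclei neither passed the fold. SOD1 stood there at 24.3 CPM in TG and 19.7 CPM in WT, a ratio of 1.23 (1.14 to 1.33). SOD2 stood at 133 CPM in TG and 139 CPM in WT, a ratio of 0.96 (0.93 to 0.99). Within cardiomyocyte-like clusters 4 and 0, SOD1 did pass the fold, at 1.64 (1.26 to 2.11) and 1.85 (1.05 to 3.02). In clusters 1 and 9, which hold most TG nuclei, the ratios were 0.84 and 0.88 with intervals that held 1, on 15 and 6 WT UMIs.

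For SOD1 the largest ratio was in macrophage-like nuclei, at 38.9 CPM in TG and 12.9 CPM in WT, or 3.03 (2.17 to 4.21). Fibroblast-like nuclei had 73.4 CPM in TG and 43.8 CPM in WT (1.68, interval 1.47 to 1.91), and vascular endothelial-like nuclei 79.7 CPM in TG and 50.6 CPM in WT (1.58, interval 1.36 to 1.83). The remaining ratios ran from 1.70 in lymphatic endothelial-like to 2.37 in smooth muscle-like nuclei, and in pericyte-like nuclei the interval held 1 (1.82, interval 0.99 to 3.32). TG and WT nuclei were spread differently over the clusters of these classes. In the smooth muscle-like cluster that held 153 TG and 58 WT nuclei, SOD1 stood at 60.4 CPM in TG and 54.7 CPM in WT, with overlapping intervals. In the lymphatic endothelial-like cluster of 177 TG and 431 WT nuclei it stood at 60.1 CPM in TG and 55.8 CPM in WT, and in that of 302 TG and 87 WT nuclei at 84.1 CPM in TG and 52.7 CPM in WT. Cardiomyocyte-like nuclei had the lowest SOD1 level of the 8 classes in TG, with an interval apart from that of macrophage-like nuclei, the next class up. Taking off the library-wide profile put SOD1 past the fold in all 7 classes, at ratios of 1.82 to 4.73. The share taken off was larger in TG in each class, at 30.4% to 73.6% against 9.02% to 39.7% in WT. The ratio of a gene scarce in the profile rises by that step alone, so these values are no separate support. The 4.73 was in smooth muscle-like nuclei, where the share counts CTNNA3. Counting the mixed clusters in the class whose markers scored highest took SOD1 below the fold in fibroblast-like nuclei at 1.48, lymphatic endothelial-like nuclei at 1.48 and vascular endothelial-like nuclei at 1.37. The annotated span of SOD1 overlaps that of SCAF4 at one end, and SCAF4 passed the fold in 0 of 8 classes (ratios 0.73 to 1.15).

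SOD2 ratios were closer to the threshold, between 1.51 in fibroblast-like and 1.85 in T or NK lymphocyte-like nuclei. Fibroblast-like nuclei had 144 CPM in TG and 95.3 CPM in WT, and macrophage-like nuclei 127 CPM in TG and 83.6 CPM in WT. In WT, cardiomyocyte-like nuclei had the highest level and stood apart from the next class. In TG, fibroblast-like nuclei led, and their interval overlapped that of the cardiomyocyte-like nuclei. With the profile taken off, SOD2 kept its call in 5 of the 7 classes, at 1.57 to 1.97, and pericyte-like nuclei gave 1.65 with an interval of 0.80 to 3.44. With the mixed clusters counted in their highest class, SOD2 was below the fold in all 7, at ratios of 1.29 to 1.39. In macrophage-like nuclei the SOD2 call was lost under 8 of the 11 alternatives. In vascular endothelial-like nuclei it was lost with nuclei weighted equally, and in fibroblast-like, pericyte-like and smooth muscle-like nuclei with TMM factors.

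SOD3 (chr8:18796633-18802156), the dismutase secreted into the extracellular space, was a gene of the fibroblast-like class. It stood at 93.9 CPM in TG (86.1 to 102) and 88.9 CPM in WT fibroblast-like nuclei (83.7 to 94.4), a ratio of 1.06 (0.95 to 1.17). With the library-wide profile taken off, SOD3 stood there at 142 CPM in TG and 97.9 CPM in WT. That ratio was 1.45 (1.30 to 1.61), under the fold with an interval that left out 1. The step left 520 of 542 SOD3 UMIs in TG and 1079 of 1093 in WT. Of all UMIs of the class it took off 36.4% in TG and 10.4% in WT. The larger ratio thus follows largely from the unequal totals and is not a separate measure of SOD3. The next class, pericyte-like, had 8.05 CPM in TG and 5.21 CPM in WT, on 3 and 4 UMIs. Thinned to 1000 UMIs per nucleus, 8.16% of TG and 7.88% of WT fibroblast-like nuclei had a SOD3 UMI (21.4% and 27.7% before thinning, at median depths of 2619 and 3945 UMIs). T or NK lymphocyte-like nuclei served as a class that should lack the gene. There 1 of 280 TG nuclei had a SOD3 UMI (0.357%) and 0 of 513 WT nuclei did, which at 3 counts of the total allows a share of up to 0.585% (the Clopper-Pearson upper bound is 0.717%).

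Within the fibroblast-like class SOD3 varied between clusters. Clusters with at least 50 nuclei ranged between 47.6 and 154 CPM in TG and between 19.0 and 147 CPM in WT. The higher SOD3 of TG cardiomyocyte-like nuclei, 1.83 CPM against 0.788 CPM in WT, is a ratio of 2.32 (1.65 to 3.28) between 87 and 60 UMIs. Markers of several other classes were also higher in TG cardiomyocyte-like nuclei, where 25.3% of all genes measured were higher. Of fibroblast markers 8 of 12 were higher and 0 lower, with a summed level of 272 CPM in TG and 117 CPM in WT. Vascular endothelial markers had 10 of 12 higher, pericyte 6 of 8, T or NK lymphocyte 7 of 11 and macrophage 6 of 11, each with 0 lower. Smooth muscle markers had 2 of 7 higher and 3 lower. The part of such transcripts in the SOD3 difference was not tested. SOD3 was also higher in TG vascular endothelial-like nuclei, at 3.87 CPM in TG and 1.22 CPM in WT, on 36 and 6 UMIs (3.17, interval 1.32 to 9.20). That call was lost when nuclei from 200 genes upward with up to 10% mitochondrial UMIs were kept, and with nuclei weighted equally, and too few UMIs were left for a ratio with the profile taken off.

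CAT (chr2:26493664-26533881) encodes catalase, the peroxisomal enzyme that splits hydrogen peroxide. It passed the fold in 1 class, smooth muscle-like, on 22 TG and 17 WT UMIs (42.9 and 15.97 CPM). In cardiomyocyte-like nuclei it stood at 48.9 CPM in TG and 67.7 CPM in WT, a ratio of 0.72 (0.69 to 0.76) that did not reach the fold for a lower call. It did so when nuclei were thinned to 1000 UMIs, at 0.64. Within cluster 4, which held nuclei of both libraries, CAT was at 72.8 CPM in TG and 71.3 CPM in WT, a ratio of 1.02 (0.86 to 1.21). In cluster 9 it was lower in TG, at 45.9 CPM in TG and 99.7 CPM in WT, on 482 and 25 UMIs (0.46, interval 0.31 to 0.72).

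The CAT level differed widely between classes. Lymphatic endothelial-like nuclei led the 8 classes in both libraries, at 107 CPM in TG and 117 CPM in WT. Their interval overlapped that of fibroblast-like nuclei in TG (91.6 CPM) and stood apart from it in WT (99.2 CPM). A small adipocyte-like cluster of 31 TG and 32 WT nuclei, too small for the comparison, had more, at 301 CPM in TG (225 to 394) and 815 CPM in WT (651 to 1008).

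PRDX3 (chr14:129079050-129090790), the peroxiredoxin of mitochondria, was lower in TG cardiomyocyte-like nuclei, at 16.4 CPM in TG and 27.7 CPM in WT. The ratio was 0.59 (0.55 to 0.64). It was higher in TG fibroblast-like nuclei, at 35.5 CPM in TG and 23.4 CPM in WT (1.52, interval 1.26 to 1.82), and in macrophage-like nuclei, at 42.0 CPM in TG and 24.9 CPM in WT (1.69, interval 1.27 to 2.22). In the other 5 classes the ratios lay above 1, from 1.17 upward, without a call. The direction turned in T or NK lymphocyte-like and pericyte-like nuclei when thinned (0.92 and 0.53) and with the mixed clusters counted (0.84 and 0.75), with intervals that held 1. In vascular endothelial-like nuclei PRDX3 passed the fold when thinned (1.74, interval 1.15 to 2.68). With the profile taken off it passed in vascular endothelial-like (1.58), T or NK lymphocyte-like (1.73) and smooth muscle-like nuclei (5.98). The limits given for SOD1, unequal shares and CTNNA3 in smooth muscle-like nuclei, hold for the PRDX3 values with the profile taken off too. The calls in fibroblast-like and macrophage-like nuclei were kept with the profile taken off, at 1.86 and 2.06, and lost with the mixed clusters counted, at 1.33 and 1.33. Both were also lost with TMM factors. The fibroblast-like call was lost too with nuclei kept from 200 genes upward and up to 10% mitochondrial UMIs. The macrophage-like call was lost with nuclei weighted equally, and when thinned (1.44, interval 0.86 to 2.37).

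In TG, cardiomyocyte-like nuclei had the lowest PRDX3 level of the 8 classes, while in WT they were the third from the top, with neighbours whose intervals overlapped. The level differed between the clusters of TG nuclei. Clusters 1 and 9, which hold most of them, had at most 16.6 CPM in TG, whereas the TG nuclei of clusters 0 and 4 had 22.0 and 21.7 CPM. Within cluster 4 the ratio was 0.74 (0.53 to 0.997). Within clusters 0, 1 and 9, where one library had few nuclei, the intervals held 1.

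TXNRD1 (chr5:80170334-80213889), the cytosolic thioredoxin reductase, differed little in most classes. In cardiomyocyte-like nuclei it stood at 70.7 CPM in TG and 66.2 CPM in WT (1.07, interval 1.02 to 1.12), and in fibroblast-like nuclei at 112 CPM in TG and 105 CPM in WT (1.07, interval 0.97 to 1.18). Within cardiomyocyte-like cluster 1 the TXNRD1 ratio was 1.60 (1.07 to 2.53), on 23 WT UMIs. In clusters 0, 4 and 9 it was 1.16, 1.15 and 0.90, with intervals that held 1. Its 1 call was lower in TG smooth muscle-like nuclei, at 72.1 CPM in TG and 123 CPM in WT, on 37 and 131 UMIs (0.59, interval 0.40 to 0.85). TG and WT nuclei of that class lay mostly in different clusters, 153 of 163 TG nuclei in 1 cluster that held 58 of 243 WT nuclei, and 101, 45 and 39 of the WT nuclei in 3 others. In the cluster that held both, TXNRD1 stood at 77.1 CPM in TG and 89.9 CPM in WT, on 37 and 23 UMIs, with overlapping intervals.

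NFE2L2 (chr15:82967485-83146185), the transcription factor NRF2, passed the fold in 0 of 8 classes. Macrophage-like nuclei had the highest level in both libraries, at 391 CPM in TG and 457 CPM in WT, a ratio of 0.86 (0.79 to 0.93), and stood apart from the next class. Cardiomyocyte-like nuclei followed, at 258 CPM in TG and 304 CPM in WT, a ratio of 0.85 (0.83 to 0.87). The ratio was below 1 with an interval that left out 1 in these 2 classes and in fibroblast-like nuclei (0.83, interval 0.78 to 0.88), and above 1 in smooth muscle-like nuclei (1.41, interval 1.09 to 1.81). In the smooth muscle-like cluster with 153 TG and 58 WT nuclei the direction turned, at 208 CPM in TG and 235 CPM in WT, with overlapping intervals. Within cardiomyocyte-like clusters 0 and 4 the NFE2L2 ratio was 0.75 and 0.67, with intervals that left out 1. In clusters 1 and 9 it was 1.07 and 0.84, with intervals that held 1. The annotated span of NFE2L2 overlaps those of HNRNPA3 and AGPS, which also passed the fold in 0 of 8 classes.

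**Figure D4:**
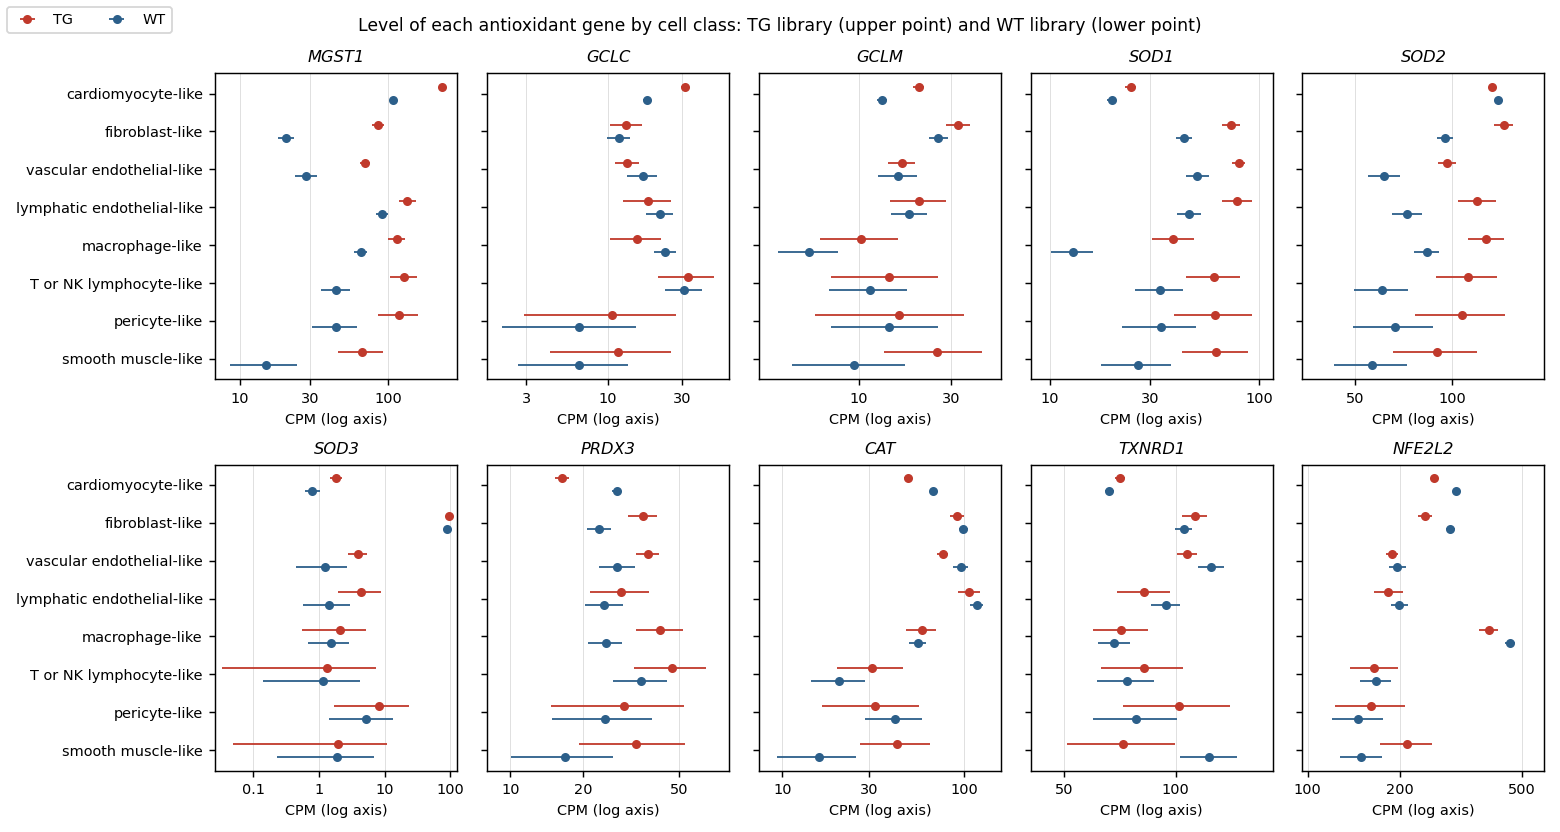
CPM of the 10 genes in 8 classes on log axes (points with exact 95% Poisson intervals), TG above WT in each class. SOD3 is concentrated in fibroblast-like nuclei (93.9 CPM in TG and 88.9 CPM in WT), NFE2L2 is highest in macrophage-like nuclei (391 and 457 CPM), and MGST1 in cardiomyocyte-like nuclei (229.5 and 108 CPM).

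Genes whose level followed a member over the 16 values of 8 classes in 2 libraries were looked for among 6983 genes that reached 50 CPM. These values share libraries and depth, so Pearson's r is given as a description. For SOD3 the closest were the matrix gene HMCN2 (0.97), the protocadherin gene PCDH9 (0.97) and LUM, a matrix proteoglycan gene (0.96), each highest in fibroblast-like nuclei. For MGST1 they were GPD1L (0.84), the mitochondrial pyruvate carrier subunit MPC2 (0.83) and the mitochondrial thioesterase ACOT13 (0.83), each highest in cardiomyocyte-like nuclei. For PRDX3 they were the respiratory chain subunit COX4I1 (0.89), the glycolytic gene GAPDH (0.89) and BRD7 (0.87). For GCLC they were OSBPL3 (0.92), the cell cycle kinase CDK1 (0.88) and SETDB2 (0.87). For PRDX3 and GCLC each of these genes was highest in T or NK lymphocyte-like nuclei.

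The wider set of antioxidant genes was described with 7 lists, which held 84 genes in the files besides the 10. In cardiomyocyte-like nuclei 12 of 81 measured were higher and 7 lower in TG, or 14.8% and 8.64%, beside 25.3% and 8.74% over all genes measured. The median log2 ratio was 0.05, beside 0.08. Of 14 measured glutathione peroxidases, transferases and their relatives besides MGST1, 1 passed the fold there, ALOX5AP, on 44 TG and 34 WT UMIs. Oxidant sources had 4 of 9 higher, beside the same 25.3%, among them the mitochondrial amine oxidase MAOB (107 CPM in TG and 44.1 CPM in WT, ratio 2.42) and the NADPH oxidase NOX4 (4.46 CPM in TG and 1.84 CPM in WT, ratio 2.43). The sestrin gene SESN3, of the thioredoxin list, stood at 6.62 CPM in TG and 1.82 CPM in WT (3.63, interval 2.96 to 4.47).

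The lower genes of the lists whose interval lay furthest from 1 in cardiomyocyte-like nuclei were MSRB1, which repairs oxidised methionine, the mitochondrial thioredoxin TXN2, and PGD, an NADPH-producing enzyme of the pentose phosphate pathway. MSRB1 stood at 6.08 CPM in TG and 19.4 CPM in WT (0.31), TXN2 at 4.61 CPM in TG and 8.37 CPM in WT (0.55), and PGD at 17.4 CPM in TG and 28.8 CPM in WT (0.60). SLC25A39, the mitochondrial glutathione importer, had a ratio of 0.54 with a wider interval (0.39 to 0.75), on 51 TG and 151 WT UMIs. In the thioredoxin, peroxiredoxin and glutaredoxin list 3 of 19 measured genes were higher and 4 lower, beside 25.3% and 8.74%.

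In fibroblast-like nuclei 20 of 78 measured genes of the lists were higher and 6 lower, beside 17.1% and 9.02% over all genes measured, with a median log2 ratio of 0.13 beside 0.06. Muscle markers were higher in the same nuclei, as given above. MGST3, a relative of MGST1, stood at 84.7 CPM in TG and 29.9 CPM in WT (2.84), and OPLAH, a glutathione recycling enzyme, at 5.54 CPM in TG and 1.38 CPM in WT (4.01, on 32 and 17 UMIs). GPX3, the secreted glutathione peroxidase, was lower, at 596 CPM in TG and 1317 CPM in WT (0.45). SESN3 was lower there too, at 80.4 CPM in TG and 223 CPM in WT (0.36), the other way round from cardiomyocyte-like nuclei. With the profile taken off, MGST3, GPX3 and SESN3 kept their calls, at 3.30, 0.62 and 0.44, and OPLAH had too few UMIs for a ratio.

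In vascular endothelial-like nuclei 10 of 77 measured genes were higher and 9 lower, beside 12% and 7.91% over all genes measured, and the median log2 ratio was -0.05. TXNIP, an inhibitor of thioredoxin, stood at 1566 CPM in TG and 667 CPM in WT (2.35), and MGST3 at 116 CPM in TG and 47.3 CPM in WT (2.45). SESN3 was at 36.2 CPM in TG and 100.3 CPM in WT (0.36), and SLC7A11, the cystine importer that feeds glutathione synthesis, at 12.7 CPM in TG and 25.3 CPM in WT (0.50). With the profile taken off, TXNIP, MGST3 and SESN3 kept their calls, and 0 CPM of SLC7A11 was left in TG, so that it had no ratio.

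Macrophage-like nuclei had 25 of 73 genes of the lists higher in TG (34.2%, beside 19.5% over all genes measured) and 4 lower. The median log2 ratio was 0.33, beside 0.08 over all genes measured. MAOB stood at 12.3 CPM in TG and 1.84 CPM in WT, on 24 and 11 UMIs (6.69, interval 3.15 to 15.1). MGST2, another relative of MGST1, stood at 8.19 CPM in TG and 1.00 CPM in WT, on 16 and 6 UMIs (8.17, interval 3.04 to 25.5). With the library-wide profile taken off, 0 CPM of either gene was left in both libraries. FTL, the ferritin light chain gene, was lower, at 152 CPM in TG and 427 CPM in WT (0.36), and stayed lower with the profile taken off, at 0.43 (0.38 to 0.49). NOS2, the inducible nitric oxide synthase gene, stood at 13.3 CPM in TG and 30.9 CPM in WT (0.43), with 0 CPM left in TG once the profile was taken off.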

How the data were processed

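The deposited matrices hold raw UMI counts per gene and barcode, 1 matrix per library, made by the authors with Cell Ranger 5.0.0 per the file headers. Cell Ranger 3.1.0, Seurat 3.1.1 and the Sscrofa11.1 build are named in the submitters' processing notes. The annotation release, and whether intronic reads were counted, are not given in the sources used here. Libraries were 10x 3' nuclear RNA, so a level depends on capture at the 3' end and on nuclear RNA.

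Nuclei were kept from 500 genes upward when 13 mitochondrial genes took no more than 5% of their UMIs. They were clustered with scanpy 1.11.5 and leidenalg 0.10.2 (2000 variable genes, 30 components, 15 neighbours, resolution 1), without batch correction. Neighbour distances were computed from component scores rounded to 4 decimals. Clusters not led by cardiomyocyte markers were split once more at resolution 0.5, and named from fixed marker lists. Thresholds for naming, and for setting aside mixed clusters in place of a doublet caller, were set after the clusters were seen. The members and lists were chosen with earlier results of these data known.

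Counts were summed over the nuclei of a class and given as CPM, per 1000000 nuclear-encoded UMIs, which are not corrected for gene length, so levels were compared within a gene. Levels have exact Poisson intervals, ratios conditional binomial intervals and shares Clopper-Pearson intervals, all at 95%. With the profile taken off, intervals are approximate. UMIs of 1 library are not replicates of a genotype. The median depth of cardiomyocyte-like nuclei was 7616 UMIs in TG and 9966.5 in WT. All 10 members were described. Of the other listed genes, those called with the interval bound furthest from 1 were named, 3 in each direction in cardiomyocyte-like and 2 in fibroblast-like, vascular endothelial-like and macrophage-like nuclei. ALOX5AP and SLC25A39 were named in cardiomyocyte-like nuclei outside this rule. Of the 103 listed genes, 94 were found, counting the 10 members. For 851 genes that the files give by ID alone, TXN2 among them, the symbol came from a reference table by gene ID. Positions are from RefSeq on Sscrofa11.1. Alternatives included TMM factors from edgeR 4.0.16. The ratio and interval code was tested on simulated data.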

Additional observations from a re-analysis of the deposited data

Results flagged for a closer look

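PRDX3 and GCLC each differed in opposite directions between classes. PRDX3 was lower in TG cardiomyocyte-like nuclei, at a TG over WT ratio of 0.593, and higher in TG fibroblast-like nuclei, at 1.52, and macrophage-like nuclei, at 1.69. GCLC was higher in TG cardiomyocyte-like nuclei, at 1.75, and lower in TG macrophage-like nuclei, at 0.657, on 30 TG and 140 WT UMIs. The differences between the classes were not tested, since each genotype has 1 library. The fibroblast-like and macrophage-like calls of PRDX3 and the macrophage-like call of GCLC were lost with the mixed clusters counted, at 1.33, 1.33 and 0.804. Both PRDX3 calls were also lost with TMM factors. The fibroblast-like one was lost with a filter of 200 genes and up to 10% mitochondrial UMIs. The macrophage-like one was lost with nuclei weighted equally or thinned.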

How the results depend on the processing

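No paired analysis was possible because each genotype has 1 library. In cardiomyocyte-like nuclei the TG over WT ratio ranged over the alternatives between 1.98 and 2.30 for MGST1, between 1.63 and 1.90 for GCLC and between 0.514 and 0.644 for PRDX3, all past the fold of 1.5. GCLM lost its call with TMM factors (1.44), SOD3 with nuclei thinned to 1000 UMIs (1.89, interval 0.448 to 9.11), and CAT became lower when thinned (0.638). MGST1 in vascular endothelial-like nuclei turned to 0.810 with the library-wide profile taken off, and GCLC in macrophage-like nuclei to 1.05 when thinned. The cause of the changes listed here was not tested.

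The number of the 10 genes past the fold was 5 in cardiomyocyte-like, 4 in fibroblast-like, 4 in vascular endothelial-like, 2 in lymphatic endothelial-like, 6 in macrophage-like, 3 in T or NK lymphocyte-like, 2 in pericyte-like and 6 in smooth muscle-like nuclei. A fold of 2 left 2, 1, 2, 0, 1, 1 and 1 in the first 7 in that order. The shares over all genes measured given earlier hold for the 1.5-fold counts alone. The counts at a fold of 2 and under the settings below have no such background. In fibroblast-like nuclei 2 were left with at least 200 genes and up to 10% mitochondrial UMIs or with TMM factors, and 1 with the mixed clusters counted. In vascular endothelial-like nuclei 2 were left with the looser filter or the mixed clusters counted, and 1 with nuclei weighted equally. In macrophage-like nuclei 3 were left with the looser filter or TMM factors, and 2 when thinned. Thinning left 1 in lymphatic endothelial-like and 1 in smooth muscle-like nuclei. In pericyte-like nuclei TMM factors left 1 and a minimum of 100 UMIs left 0. In smooth muscle-like nuclei that minimum left 2. With the profile taken off, pericyte-like nuclei kept 0 of their 2 calls and gained SOD1. Smooth muscle-like nuclei then kept 1 of 6 and gained PRDX3, and vascular endothelial-like nuclei kept 2 of 4 and gained GCLC and PRDX3. With the mixed clusters counted, lymphatic endothelial-like nuclei kept 0 of 2 and gained MGST1 and SOD3.

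Of the other antioxidant genes measured, 19 of 81 in cardiomyocyte-like, 26 of 78 in fibroblast-like and 19 of 77 in vascular endothelial-like nuclei were past the fold. So were 15 of 73 in lymphatic endothelial-like, 29 of 73 in macrophage-like and 14 of 60 in T or NK lymphocyte-like nuclei. Pericyte-like nuclei had 7 of 45 and smooth muscle-like nuclei 16 of 47. Over all genes measured the shares were 34.1%, 26.1%, 19.9%, 20%, 27.4%, 24.1%, 18.5% and 27.3% in that order. Those shares hold for the 1.5-fold counts alone, and the counts under other settings below have no such background. A fold of 2 left 8, 10, 8, 9, 18 and 9 in the first 6 in that order. Thinning left 9 in vascular endothelial-like, 16 in macrophage-like and 8 in smooth muscle-like nuclei. A minimum of 100 UMIs left 16 in macrophage-like, 1 in pericyte-like and 7 in smooth muscle-like nuclei. With the mixed clusters counted there were 27 in lymphatic endothelial-like and 14 in pericyte-like nuclei, and with the profile taken off 6 in smooth muscle-like nuclei.

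The class with the highest level fell to place 2 for GCLC and SOD1 in TG and TXNRD1 in WT when the most abundant gene was left out of the total, for GCLM in TG when thinned, and for TXNRD1 in WT with nuclei weighted equally. PRDX3 in TG fell to place 5 when thinned. Counts limit some values. In pericyte-like and smooth muscle-like nuclei, the classes with the fewest nuclei of the 8, 6 genes rest on at most 32 UMIs of a library. These are SOD3, GCLC, GCLM, SOD1, PRDX3 and CAT.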
